A study of Sus scrofa with 6 samples.

Results

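CLCA1 and MUC4 encode 2 proteins that epithelia add to the mucus on their surface. The genes were followed here through every probe set whose only gene symbol in the platform annotation is CLCA1 or MUC4. This gave 1 probe set for each gene, or 2 of 23999 probe sets and 2 of 6765 genes. Both were chosen by their log2 differences between the cell lines on these same arrays, so these differences are a description, with no test.

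The arrays compare untreated cultures of IPEC-J2 and IPEC-1, lines of intestinal epithelial cells that were taken from newborn piglets and became immortal spontaneously. Each group is therefore 1 cell line. Both lines were grown on porous membrane inserts, where they polarise, in a medium with fetal calf serum, insulin-transferrin-selenium and epidermal growth factor (EGF). The labels give 7 days on the membranes and the methods a longer time. RNA of 500 ng per culture was hybridised to Affymetrix Porcine Genome Arrays, 3 for IPEC-J2 and 3 for IPEC-1, and the p-values below measure only the spread between these cultures.

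Intestinal mucus is a gel of secreted mucins that goblet cells release together with smaller proteins, over a coat of mucins that stay anchored in the apical membrane. CLCA1 is one of the secreted proteins. It is a metalloprotease that cleaves itself, it is abundant in the mucus of the human and mouse intestine and airway, and in human cells it raises the chloride current through the channel ANO1. MUC4 belongs to the anchored mucins. It carries a long outer part densely decorated with O-linked sugars and EGF-like domains next to the membrane, and in rat and human cells it binds the receptor ERBB2.

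The deposited signals are log2 values with a floor of exactly 4.00, on which 40.5 to 48.3% of the probe sets stood on each array. The median signal of an array lay between 5.37, on IPEC-J2 replicate 1, and 6.53, and the 75th percentile between 8.31, on the same array, and 8.56. Pearson's r between arrays was 0.969 to 0.988 inside a line and 0.877 to 0.907 across the lines, over 11006 probe sets. The number of arrays limits the precision. The sample labels tie IPEC-J2 replicate 3 and IPEC-1 replicate 1 to the same culture note, called note A here, and IPEC-J2 replicate 1 and IPEC-1 replicate 2 to another, called note B. The labels of IPEC-J2 replicate 2 and IPEC-1 replicate 3 carry no such note. Taken as the last of 3 culture pairs, they enter a fit with the pairs as a block, which is named below where it ends a call.

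CLCA1 was the gene with the fourth most negative difference among the 5513 measured genes, those above the floor on at least 1 array. Its log2 signal was 6.78, 8.22 and 7.23 on IPEC-J2 replicates 1, 2 and 3, against 13.01, 13.17 and 13.78 on the IPEC-1 arrays. All 3 IPEC-J2 arrays lay far below all 3 IPEC-1 arrays, with a gap of 4.79 between the nearest values. The mean was 7.41 ± 0.74 in IPEC-J2 and 13.32 ± 0.41 in IPEC-1 (SD, n = 3 each), a difference of -5.91 (SE 0.49). On a linear scale this is a 60.1-fold lower signal in IPEC-J2, and the 9 possible pairs of arrays gave between 27.7-fold and 128-fold.

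The IPEC-1 end of this difference is close to the top of the scale. The IPEC-J2 end, at 6.78 to 8.22, lies above the floor and above the median signal of each array. On the IPEC-1 side, the highest signal of any probe set was 14.19 to 14.25, so CLCA1 stood near the top. On the IPEC-J2 side, CLCA1 was above the floor on all 3 arrays and above 5.10. That level is the 95th percentile of what an IPEC-J2 array gave for probe sets whose other 2 IPEC-J2 signals were the floor. Among the probe sets that did give a signal on that array alone, the 95th percentile was 7.78, and the CLCA1 signals of IPEC-J2 replicates 1 and 3 lay under it. How much of the IPEC-J2 signal is background was not tested.

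MUC4 ran in the other direction. Its log2 signal was 11.82, 12.44 and 11.93 on IPEC-J2 replicates 1, 2 and 3, against 9.89, 9.39 and 11.42 on the IPEC-1 arrays. The IPEC-J2 arrays lay above all IPEC-1 arrays and closer together than these, but IPEC-1 replicate 3 came within 0.40 of the lowest of them. The mean was 12.06 ± 0.33 in IPEC-J2 and 10.23 ± 1.06 in IPEC-1 (SD, n = 3 each), a difference of 1.83 (SE 0.64), or a 3.56-fold higher signal in IPEC-J2. The 9 pairs of arrays gave between 1.32-fold and 8.28-fold. The size depended on IPEC-1 replicate 3, without which the difference was 2.42. Values of 2 cell lines that do not overlap are common on these arrays and were found in 47.5% of the measured genes.

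**Figure D1:**
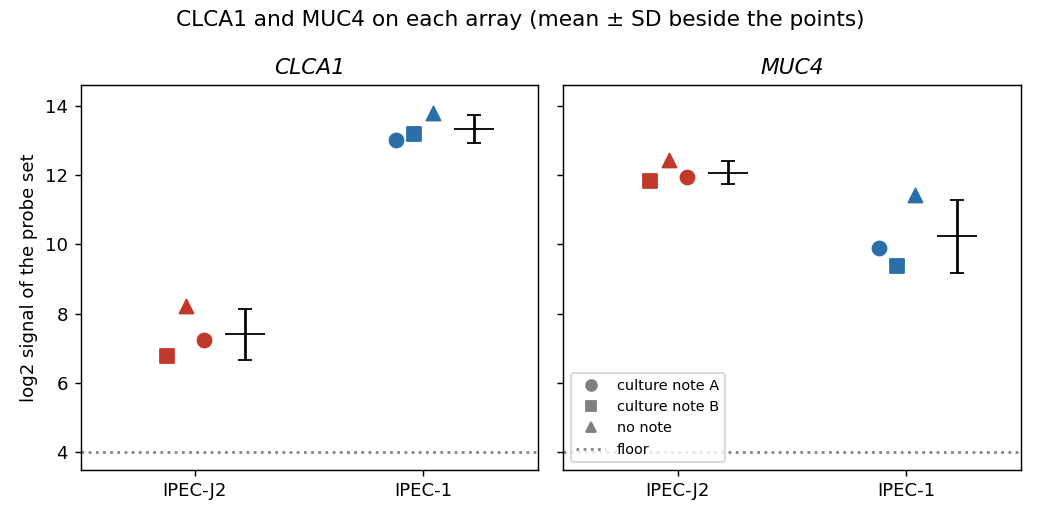
Log2 signal of the CLCA1 and the MUC4 probe set (vertical axis) on each array of IPEC-J2 (red) and IPEC-1 (blue), with the mean and SD of 3 arrays beside the points, the culture note as the marker and the floor of 4.00 as a dotted line. CLCA1 is separated by 4.79 between the nearest arrays, MUC4 by 0.40, and the arrays without a note (triangles) are the highest of their cell line for both genes.

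Within culture notes, CLCA1 differed by -5.78 in note A and -6.39 in note B, and MUC4 by 2.04 in note A and 2.43 in note B. Between the arrays without a note, the differences were -5.56 for CLCA1 and 1.02 for MUC4. For both genes the array without a note was the highest of its cell line. CLCA1 on this array exceeded the mean of the other 2 arrays by 1.21 in IPEC-J2 and 0.69 in IPEC-1, and MUC4 by 0.56 in IPEC-J2 and 1.78 in IPEC-1. Over the 4330 genes above the floor on all arrays, the median of the same quantity was 0.14 in IPEC-J2 and 0.00 in IPEC-1, and 2.59% of these genes exceeded 0.5 in both cell lines. This pattern was picked after its values were seen, and the cause was not tested.

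Both genes varied more within a cell line than most measured genes. Among 1781 genes with a mean signal of at least 9, the median SD was 0.11 over the IPEC-J2 arrays and 0.14 over the IPEC-1 arrays. The SD of CLCA1 was above that of 99.5% of these genes in IPEC-J2 and 93.4% in IPEC-1. The mean for this cut was taken over all 6 arrays, and CLCA1 reached it through IPEC-1. Its IPEC-J2 mean of 7.41 was under 9, so the 99.5% sets a dimmer signal against genes chosen as bright. The SD of MUC4 was above that of 94.5% in IPEC-J2 and 99.5% in IPEC-1. Over all 5513 measured genes, dim ones included, the shares were lower. They were 87.8% in IPEC-J2 and 80.6% in IPEC-1 for CLCA1, and 71.2% in IPEC-J2 and 93.8% in IPEC-1 for MUC4. IPEC-1 replicate 3 exceeded both other IPEC-1 arrays by 1 log2 unit or more in 43 of the 4330 genes, IPEC-1 replicate 1 in 44 and IPEC-1 replicate 2 in 15, so a single high array of this size was seen in few genes on each of them.

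**Figure D2:**
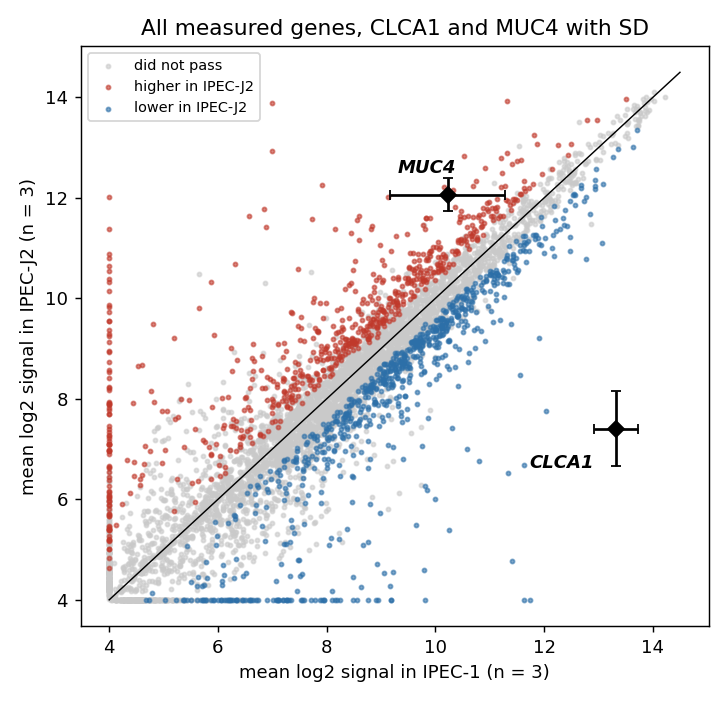
Mean log2 signal in IPEC-J2 (vertical axis) against IPEC-1 (horizontal axis) for the 5513 measured genes, coloured by the limma result, with CLCA1 and MUC4 as diamonds with the SD of 3 arrays. CLCA1 stands far below the diagonal at 7.41 and 13.32, and MUC4 lies above it at 12.06 and 10.23 with a wide SD in IPEC-1.

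The genes most like CLCA1 and MUC4 were taken as the 5 with the smallest root mean square difference of log2 signals over the 6 arrays, after each gene was centred on its mean, among 4764 genes above the floor on at least 4 arrays. For CLCA1 these were PHYH (0.48), which acts in peroxisomal breakdown of branched fatty acids, LOC100523870 (0.60), the small GTPase RHOQ (0.72), the estrogen sulfotransferase SULT1E1 (0.75) and SPP1 (0.84), which encodes osteopontin, against a median of 2.96 over the candidates. Each of the 5 was at the floor on 1 or 2 IPEC-J2 arrays, which CLCA1 was not. SULT1E1 had signals of 4.00, 5.62 and 4.00 in IPEC-J2, against 8.37, 9.04 and 9.76 in IPEC-1. In SULT1E1 and RHOQ the array without a note was the highest in each line, as in CLCA1. PHYH, LOC100523870 and SPP1 went the other way in IPEC-1, where replicate 1 was their highest array.

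For MUC4 the most similar genes were HAS3 (0.21), which makes hyaluronan, the vesicle membrane protein SCAMP4 (0.23), IER5 (0.27), AKAP1 (0.28), which anchors protein kinase A at mitochondria, and LOC100523672 (0.30), against a median of 1.16. HAS3 had signals of 8.90, 9.23 and 9.16 in IPEC-J2, against 6.66, 6.55 and 8.13 in IPEC-1. SCAMP4 had 7.87, 8.39 and 8.13 in IPEC-J2, against 6.05, 6.06 and 7.56 in IPEC-1. Like MUC4, all 5 genes had their highest IPEC-1 value on replicate 3. These genes were chosen for their pattern, so no test is given.

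**Figure D3:**
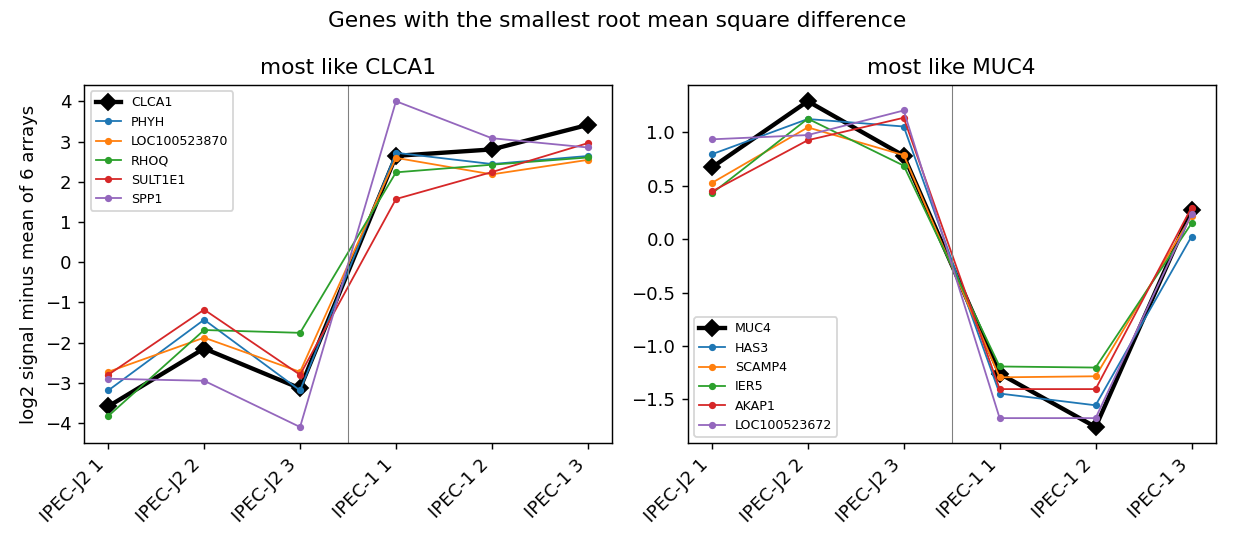
Log2 signal minus the mean over the 6 arrays (vertical axis) for CLCA1 and MUC4 (black diamonds) and the 5 genes most like each (coloured circles), by array, IPEC-J2 left and IPEC-1 right of the grey line. Lines join the values of a gene and imply no order of the arrays; the MUC4 panel shows the raised IPEC-1 replicate 3 in all 6 genes.

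In the RefSeq gene table of the pig assembly Sscrofa11.1, CLCA1 lies on chromosome 4 between its relatives CLCA4 and CLCA2, and MUC4 on chromosome 13 beside the anchored mucin MUC20. These relatives were not analysed here. The nearest genes with a named probe set were compared instead, 3 on each side. Their starts lay at -519 to -260 kb and 771 to 1144 kb from the start of CLCA1. Around MUC4 they lay at -996 to -216 kb and 1276 to 2317 kb, so other genes lie between. Differences were tested with limma. The p-values were adjusted (Benjamini-Hochberg) over all 5513 measured genes, and a gene with an adjusted p under 0.05 is called higher or lower here. This gave 662 higher genes (12%) and 762 lower genes (13.8%), or 25.8% in all.

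Around CLCA1, 5 of the 6 neighbours were measured and 0 of these 5 passed. SH3GLB1, an endophilin and the nearest on 1 side, had signals of 10.99, 11.02 and 10.84 in IPEC-J2, against 11.06, 11.05 and 11.08 in IPEC-1, a difference of -0.11 (SE 0.0918, adjusted p = 0.417). CYR61, a secreted matrix-associated protein and the nearest on the other side, had signals of 10.59, 10.82 and 9.81 in IPEC-J2, against 11.84, 11.22 and 11.22 in IPEC-1, a difference of -1.02 (SE 0.324, adjusted p = 0.0728). SELENOF, DDAH1 and HS2ST1 differed by -0.25, 0.48 and 0.16. SELENOF was called lower under 4 alternatives (adjusted p between 0.0298 and 0.0418). None of these 5 genes came near the difference of CLCA1, at -5.91. CLCA1 was chosen for its large difference, so smaller ones in its neighbours are no finding about the locus.

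Around MUC4, 3 of the 6 neighbours were measured and 1 was lower. CCDC14, a centrosomal protein, had signals of 5.84, 6.23 and 6.36 in IPEC-J2, against 6.89, 6.92 and 6.99 in IPEC-1 (difference -0.79, adjusted p = 0.0185). This call ended without any 1 of the IPEC-1 arrays (adjusted p between 0.0530 and 0.0627) and with quantile normalization (0.0545). The integrin subunit ITGB5 had 9.56, 9.56 and 9.43 in IPEC-J2, against 9.03, 8.73 and 9.26 in IPEC-1 (0.51, adjusted p = 0.0667, against 0.0467 without IPEC-1 replicate 3), and PIGX differed by -0.09. TFRC, the transferrin receptor that dividing cells use to take up iron, was at the floor on all 6 arrays. Whether a gene at the floor is silent was not tested.

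**Figure D4:**
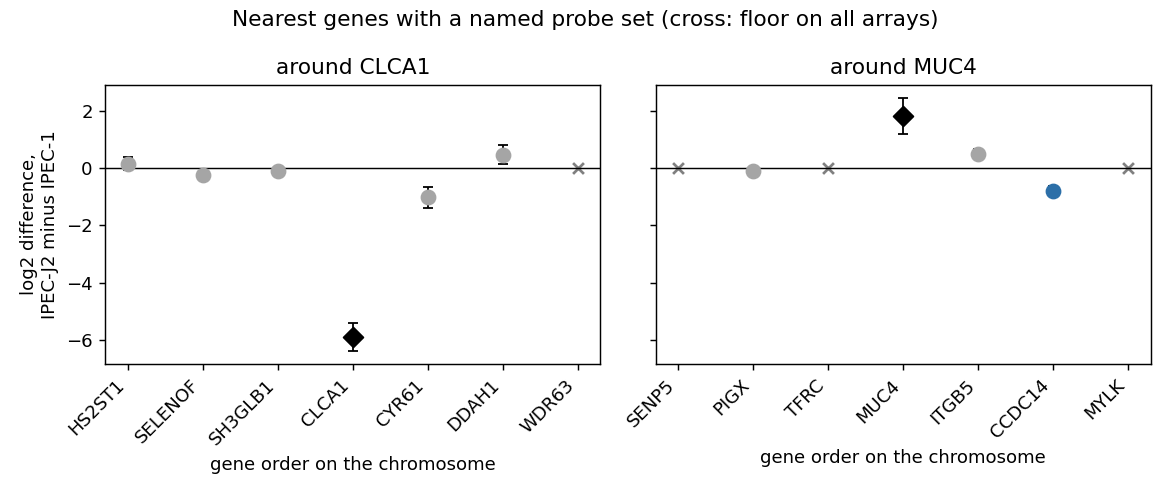
Log2 difference, IPEC-J2 minus IPEC-1, of CLCA1, MUC4 (black diamonds) and the 3 nearest genes on each side that have a named probe set (circles, blue where lower in IPEC-J2, grey where the test was not passed), in chromosome order and not to scale. Bars are the SE from the SDs of 3 arrays per line and crosses mark genes at the floor on all arrays. CLCA1, which was chosen for its difference, lies at -5.91, apart from its neighbours.

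Other genes of mucus and mucins were taken from 9 lists written from general knowledge, with earlier results of these data known. Of 173 listed genes, 94 had a named probe set and 75 of these were measured. In IPEC-J2, 16 of the 75 were higher (21.3%, against 12% of all measured genes) and 7 lower (9.33%, against 13.8%). Their median log2 difference was 0.25, against -0.05 over all measured genes. The lists were not tested as sets. The shares of all measured genes, 12% higher and 13.8% lower, also stand beside the count of each list below. All 23 called genes had the same direction within culture notes A and B as over all arrays. The genes were called on these same arrays, so the shared direction is no independent support. Without any 1 array, 14 of the 23 stayed called in every case.

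Of the other mucins, 2 were measured and 0 were called. The anchored mucin MUC1, with 2 probe sets, had mean signals of 7.14, 8.46 and 7.38 in IPEC-J2, against 7.60, 7.32 and 7.82 in IPEC-1, a difference of 0.09 (adjusted p = 0.888). Its probe sets disagreed: 1 was at the floor on 5 arrays, and the other differed by -0.44, with 10.29, 11.08 and 10.77 in IPEC-J2, against 11.19, 10.65 and 11.63 in IPEC-1. CD164, a small sialomucin, differed by 0.51 (adjusted p = 0.558) with 3 probe sets at 0.34, -0.02 and 1.20, and was called higher where the brightest of them, at 0.34, stood for the gene (adjusted p = 0.0446). The secreted mucin MUC19 and the anchored mucin MUC15 gave only floor values, and the gel-forming mucin MUC2 was not analysed here.

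Of 5 measured goblet cell mucus genes, 1 passed the test and it was lower. FCGBP, a large mucus protein that links to mucins, had signals of 4.00, 6.23 and 6.22 in IPEC-J2, against 6.53, 6.39 and 7.89 in IPEC-1 (difference -1.45, adjusted p = 0.212). SPINK4, a peptide related to protease inhibitors, had 6.82, 7.79 and 6.87 in IPEC-J2, against 6.45, 6.48 and 6.66 in IPEC-1 (0.63, adjusted p = 0.162). These are means of 2 probe sets, of which 1 was at the floor on 5 arrays. The other gave 9.65 to 10 in IPEC-J2, against 8.90, 8.97 and 9.32 in IPEC-1 (difference 0.73), and SPINK4 was called higher with this brightest probe set (adjusted p = 0.0227) and with quantile normalization (0.45, adjusted p = 0.048). The trefoil peptide TFF1 differed by 1.32 with the floor on 1 IPEC-J2 and 2 IPEC-1 arrays, and TFF3, the trefoil peptide of intestinal goblet cells, was at the floor on all arrays. The called gene was CREB3L4, a membrane-bound transcription factor. It had 6.70, 6.80 and 6.90 in IPEC-J2, against 7.76, 8.11 and 8.22 in IPEC-1 (difference -1.23, adjusted p = 0.00431).

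Among regulators of goblet cells and of mucin genes, 3 of 12 were higher and 1 was lower. HNF4A, a nuclear receptor of the gut and liver, had signals of 8.80, 8.62 and 8.61 in IPEC-J2, against 4.00, 4.82 and 4.98 in IPEC-1 (difference 4.08, adjusted p = 0.000459). Both of its probe sets, at 4.97 and 3.19, ran the same way, with the floor as the IPEC-1 value of the second. IL4R, the receptor chain through which IL-4 and IL-13 act on goblet cells and raise CLCA1 in human and mouse airway, was higher with 6.92, 6.92 and 6.82 in IPEC-J2, against 5.59, 5.78 and 6.23 in IPEC-1 (1.02, adjusted p = 0.0137). The whole difference came from 1 of 2 probe sets, at 2.03, since the other was at the floor on every array. IL13RA1, its partner chain, was also at the floor throughout, and STAT6, the transcription factor below the receptor, differed by -0.06 (adjusted p = 0.862).

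FOXA1, a transcription factor of endoderm and mucous epithelia, was 1.70-fold lower, with 10.48, 10.93 and 10.64 in IPEC-J2, against 11.32, 11.32 and 11.71 in IPEC-1 (adjusted p = 0.0289). FOXA2 differed by 0.21, and KLF4, a factor of goblet cell maturation in the mouse colon, by 0.95 (adjusted p = 0.158, against 0.0415 without IPEC-J2 replicate 1 and 0.046 with quantile normalization). GATA6, an endodermal factor, was 1.39-fold higher (adjusted p = 0.0383). The calls depended on the arrays and the fit. GATA6 lost its call without any 1 array (up to 0.117) and with the culture pairs as a block (0.0940). FOXA1 lost its call without any 1 array except IPEC-J2 replicate 2 (up to 0.0969). The FOXA1 call also ended with the methods' t-test after Benjamini-Hochberg adjustment (0.0575). IL4R lost its call without IPEC-J2 replicate 3, where it stood at the threshold of 0.05.

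In the list of CLCA relatives and anion transport, 1 of 7 measured genes was higher and 1 lower. ANO6, a calcium-activated scramblase and channel of the ANO1 family, had 11.69, 11.69 and 11.84 in IPEC-J2, against 10.66, 10.33 and 10.42 in IPEC-1, and so a level 2.41-fold higher (adjusted p = 0.00183). ANO1 itself was not analysed here. CA12, a carbonic anhydrase of the cell surface, was 1.99-fold lower (adjusted p = 0.0495), a call that was lost without any 1 array (up to 0.134) and with the culture pairs as a block (0.0917). The chloride channels CFTR and BEST1 and the bicarbonate carriers SLC26A6 and SLC4A4 were at the floor on all arrays. The exchanger SLC26A3 was above the floor on IPEC-1 replicate 1 alone, and CLCN2 differed by 1.19 (adjusted p = 0.393).

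In the list of mucin type O-glycosylation, which decorates MUC4 and other mucins, 4 of 13 measured genes were called, all 4 higher in IPEC-J2. Over all measured genes, 25.8% were called in either direction, so this count is no finding about mucin decoration. GALNT7, which adds N-acetylgalactosamine at early steps, had 11.01, 11.22 and 11.24 in IPEC-J2, against 10.50, 10.30 and 10.55 in IPEC-1 (1.63-fold, adjusted p = 0.0116). B3GNT3, which extends core 1 chains, had 11.70, 11.97 and 11.76 in IPEC-J2, against 10.29, 10.30 and 10.48 in IPEC-1 (2.74-fold, adjusted p = 0.000890). The galactosyltransferase B4GALT1 was 1.73-fold higher (adjusted p = 0.00596) and C1GALT1C1, the chaperone of the core 1 synthase, 1.53-fold higher (adjusted p = 0.0397). GALNT7 lost its call without IPEC-J2 replicate 3 (0.0526) and C1GALT1C1 without any 1 array except IPEC-J2 replicate 1 (up to 0.127). C1GALT1C1 also lost it with the culture pairs as a block (0.0506). GALNT10 and GALNT11 differed by 0.02 and 0.10, and the sialyltransferase ST3GAL1 by -1.66 (adjusted p = 0.0635). Of its 4 probe sets, the 1 above the floor on every array had 7.62, 7.63 and 7.74 in IPEC-J2, against 9.67, 10.61 and 10.01 in IPEC-1. It differed by -2.43, opposite to the 4 called genes.

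Of 6 measured genes in the list of receptors, ligands and galectins around MUC4, 3 were higher and 0 lower. TGFA, a ligand of EGFR, had signals of 8.20, 8.46 and 8.61 in IPEC-J2, whereas every IPEC-1 array gave the floor (adjusted p = 2.45e-05). HBEGF, another ligand of EGFR, had 8.15, 8.53 and 7.94 in IPEC-J2, also with the floor throughout IPEC-1 (adjusted p = 7.23e-05). No fold is given for either, since the level behind the floor is unknown. LGALS4, a galectin of the gut that takes part in apical transport, had 11.80, 12.85 and 12.14 in IPEC-J2, against 7.91, 7.67 and 8.17 in IPEC-1 (difference 4.35, adjusted p = 0.000491). The receptor EGFR differed by 0.30 (adjusted p = 0.0674, and called higher under 3 alternatives with 0.0271 to 0.0372) and LGALS3, a galectin that binds mucins, by -0.17 (adjusted p = 0.227). ERBB2, the partner of MUC4, was not analysed here.

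**Figure D5:**
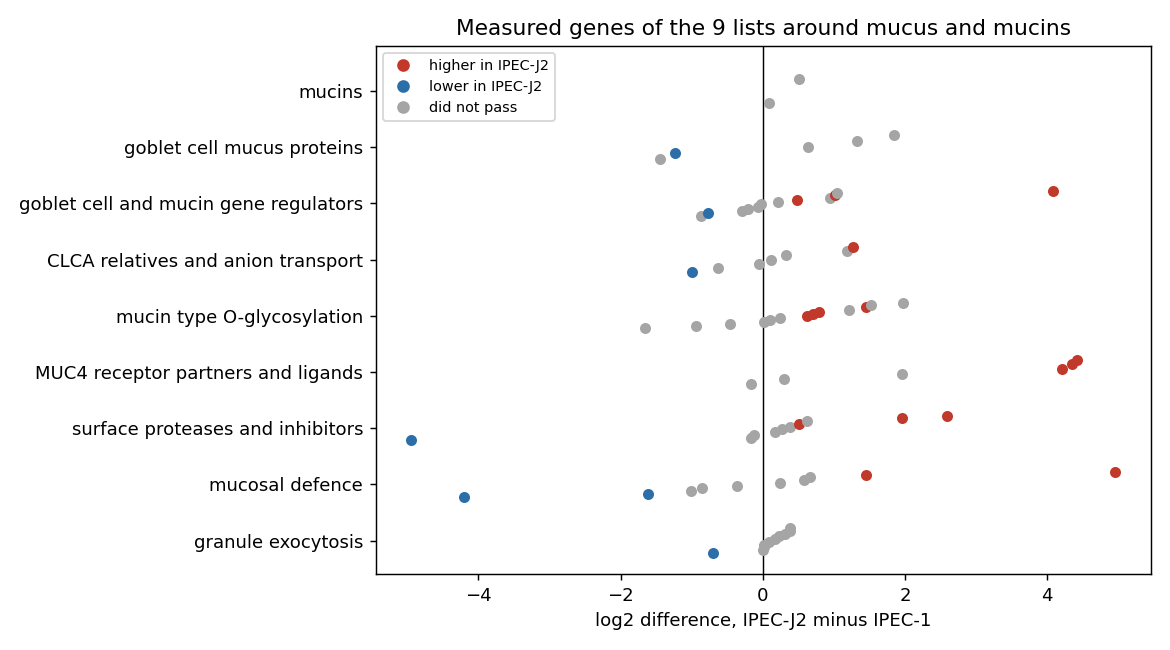
Log2 difference, IPEC-J2 minus IPEC-1 (horizontal axis), of each measured gene in the 9 lists, red where higher and blue where lower in IPEC-J2 by limma and grey where the test was not passed. The 3 called genes among the receptor partners and ligands of MUC4 lie at 4.21 to 4.42, where TGFA and HBEGF have the floor as their IPEC-1 value, and the 4 called O-glycosylation genes between 0.62 and 1.45.

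Proteases and inhibitors of the cell surface went both ways, with 3 of 10 higher and 1 lower. ST14, matriptase, had 11.08, 11.43 and 11.22 in IPEC-J2, against 9.57, 9.0 and 9.27 in IPEC-1 (difference 1.96, adjusted p = 0.00162). Its inhibitor SPINT1 was 1.42-fold higher (adjusted p = 0.0151), a call lost without IPEC-J2 replicate 3 or IPEC-1 replicate 3 (up to 0.0552) and with the culture pairs as a block (0.0541), and PRSS8, a protease that acts with matriptase, differed by 0.27 (adjusted p = 0.184). The matrix protease MMP7 lay at 13.85 or above on all IPEC-J2 arrays, against 10.51, 11.26 and 12.20 in IPEC-1 (difference 2.59, adjusted p = 0.0108). MEP1B, a subunit of the meprin that trims mucins, was at 4.00 on 5 arrays. SLPI, a protease inhibitor of mucosal secretions, was lower like CLCA1, at 6.86, 6.01 and 7.18 in IPEC-J2, against 11.30, 12.04 and 11.56 in IPEC-1 (-4.95, adjusted p = 0.000556).

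In mucosal defence, 2 of 10 genes were higher and 2 lower. DMBT1, a mucin-like scavenger protein that binds bacteria, had 8.78, 9.03 and 9.08 in IPEC-J2 and floor values throughout IPEC-1 (adjusted p = 1.18e-05). DEFB1, a beta-defensin, had 5.48, 5.03 and 5.84 in IPEC-J2 and the floor in IPEC-1 (adjusted p = 0.00786). The difference came from 1 of 2 probe sets, with 6.96, 6.06 and 7.68 in IPEC-J2, since the other was at the floor throughout. The complement component C3 was lower, with 4.00, 4.00 and 6.15 in IPEC-J2, against 8.66, 9.38 and 8.72 in IPEC-1 (adjusted p = 0.00888). PIGR, which carries IgA into the lumen, was lower with 4.00, 4.73 and 4.76 in IPEC-J2, against 5.79, 6.76 and 5.80 in IPEC-1 (adjusted p = 0.0257), a call lost without any 1 of the IPEC-J2 arrays or IPEC-1 replicate 3 (up to 0.0615), and with the culture pairs as a block (0.0860). Its brighter probe set differed by -2.71 and the other, at the floor on 5 arrays, by -0.53. BPI, a protein that kills bacteria, differed by -1.01 (adjusted p = 0.173).

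Of 10 measured genes of granule exocytosis, by which goblet cells release mucus, 1 was called, the vesicle priming factor UNC13D, which was 1.62-fold lower with 7.84, 7.76 and 7.57 in IPEC-J2, against 8.33, 8.67 and 8.27 in IPEC-1 (adjusted p = 0.0231). It lost its call without IPEC-J2 replicate 2 or 3 or IPEC-1 replicate 1 (up to 0.0829) and with quantile normalization (0.054). The other 9 lay between 0.00 and 0.38, among them RAB3D at 0.02, RAB27B at 0.38 and the vesicle SNARE VAMP8 at 0.38 (adjusted p = 0.0985, against 0.0324 without IPEC-1 replicate 2).

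The labelled cell type was set against marker genes. The summed linear signal of 6 epithelial markers was 30360 to 32640 in IPEC-J2 and 32450 to 35230 in IPEC-1. EPCAM, the epithelial adhesion molecule, had 13.52, 13.53 and 13.60 in IPEC-J2, against 13.34, 13.46 and 13.37 in IPEC-1 (adjusted p = 0.230). The keratin KRT19 was lower, with 12.26, 12.33 and 12.24 in IPEC-J2, against 13.17, 12.99 and 13.07 in IPEC-1 (-0.80, adjusted p = 0.00363). The tight junction protein CLDN7 was higher, with 11.73, 11.71 and 11.16 in IPEC-J2, against 10.30, 10.67 and 10.36 in IPEC-1 (1.09, adjusted p = 0.0154). KRT8, KRT18 and CDH1 were not called. Of 3 goblet cell markers with a named probe set, FCGBP and SPINK4 had the signals given above and TFF3 was at the floor. With probe sets averaged, no goblet cell marker was called, and the sum was 145.4 to 312.4 in IPEC-J2 and 189.4 to 354.3 in IPEC-1. This sum is lowered by a SPINK4 probe set that was mostly at the floor. The brighter SPINK4 probe set alone gave log2 signals of 9.65 to 10 in IPEC-J2, against 8.90 to 9.32 in IPEC-1. Among 8 enterocyte markers, FABP1, FABP2, APOA4, APOB, ANPEP and DPP4 were at the floor on every array. APOA1 had 11.27, 10.44 and 10.78 in IPEC-J2, against 9.90, 10.72 and 10.53 in IPEC-1, and was not called (0.45, adjusted p = 0.332). VIL1, the actin bundler of microvilli, had 13.83, 14.04 and 13.81 in IPEC-J2, against 8.45, 4.00 and 8.53 in IPEC-1 (adjusted p = 0.0154). MMP7, the measured marker of Paneth cells, was higher as given above. All 6 enteroendocrine markers were at the floor, and no marker of tuft, stem or gastric and airway mucous cells was called. Mesenchymal markers summed to 2789 to 4537 in IPEC-J2 and 4784 to 10610 in IPEC-1, mostly from VIM, with 10.95, 11.63 and 11.85 in IPEC-J2, against 13.06, 12.17 and 13.35 in IPEC-1 (adjusted p = 0.0523). THY1 was higher with 9.38, 9.82 and 9.46 in IPEC-J2 and the floor in IPEC-1 (adjusted p = 1.6e-05). Of the immune cell markers, PTPRC and CD74 gave only floor values, and CD3E was lower, with the floor in IPEC-J2 and 5.6 to 6.13 in IPEC-1 (adjusted p = 0.00104). The part of cell type in the CLCA1 and MUC4 differences was not tested. In bulk RNA, fewer cells with a transcript and less of it per cell cannot be told apart.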

How the data were processed

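The authors deposited 1 table of log2 signals per probe set, for which the labels name GCOS 1.1.1 and PLIER. According to the methods, arrays were scaled globally and then background-corrected, normalized and summarised per probe set. The log base is not stated in the sources used here and was read from the floor of 4.00, the log2 of 16. No further normalization was applied and detection calls were not used. Of 23999 probe sets, after removal of 124 controls, 10069 had 1 gene symbol in the platform annotation, and their log2 signals were averaged to 6765 genes. Left out of the fit were 1252 genes with floor values only, which have no spread. The cell lines were compared over the other 5513 genes by lmFit and eBayes (limma 3.58.1, R 4.3.3) with cell line as the only term and a Benjamini-Hochberg threshold of 0.05, and the script was tested on simulated data. With 3 arrays per line, exact permutations reach no two-sided p below 0.1, so the model across genes was used.

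CLCA1 and MUC4, the gene lists, the marker lists and the naming rule were chosen with earlier results of these data known. The rule named both genes, in each list up to 3 called genes per direction with the largest difference and the first 3 measured genes, the 5 genes most like each member, 3 neighbours on each side, and markers of lists with few measured genes. C1GALT1C1, ST3GAL1, STAT6, FUT8 and genes given only as floor values were added after their values were seen. The replicate numbers of the titles do not match the culture notes. Deviations from the cell line means correlated at -0.19, -0.29 and 0.05 for numbers 1, 2 and 3. The correlations were 0.19 and 0.40 for culture notes A and B and 0.26 for the 2 arrays without a note. The 3 deviations of a line cancel out, so these correlations depend on each other. The pair without a note therefore rests on elimination only. The alternatives were other genes in the fit, probe set summaries, scalings, offsets, filters and moderation, the methods' t-test, blocks, and leaving out each array. No sequence of either gene was used here.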

Additional observations from a re-analysis of the deposited data

How the results depend on the processing

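CLCA1 stayed lower (-6.39 to -5.60) and MUC4 higher (1.41 to 2.43) in IPEC-J2 under every scaling, offset, block, culture note and left-out array that was run. The pair of arrays without a note lay outside these ranges, at -5.56 for CLCA1 and 1.02 for MUC4. Without 1 array, CLCA1 ranged from -6.31 to -5.60 and MUC4 from 1.41 to 2.42. Both genes were chosen for their differences on these same arrays. The signals of the cell lines do not overlap for either gene, so leaving out an array could not reverse a sign. The replicate block and the block of culture pairs give the main values by design. These ranges are therefore no independent support. Each gene has 1 probe set, so single probe sets and the brightest one give the main value. Counts of genes moved more. Without 1 array, 376 to 692 genes were higher and 401 to 618 lower, and 11 to 18 list genes were higher and 3 to 5 lower. The lowest counts were 376 higher and 401 lower without IPEC-J2 replicate 3. Without IPEC-J2 replicate 2, 441 were higher, and without IPEC-1 replicate 3, 479 were lower. With the replicate number as a replicate block, 283 genes were higher and 309 lower, and 11 list genes were higher and 4 lower. The calls of IL4R, GATA6, FOXA1, CA12, GALNT7, SPINT1, UNC13D and CCDC14 were among those that ended in this fit. With the culture note as a block over 4 arrays, 86 were higher and 89 lower, and 5 list genes were higher and 0 lower. This fit has fewer arrays. Without adjustment, the methods' t-test called 1154 genes lower, 11 of them in the lists, and 920 higher, against 596 higher and 679 lower after Benjamini-Hochberg adjustment. With probe sets in place of genes, 1435 were higher and 1660 lower, since more features were tested. With all 3 culture pairs as a block, an alternative chosen after seeing the data in which the arrays without a note form the last pair, 547 were higher and 559 lower, and 18 of the 23 list calls were kept. Those lost were GATA6 (0.0940), CA12 (0.0917), PIGR (0.0860), SPINT1 (0.0541) and C1GALT1C1 (0.0506), as adjusted p. Centred on the 75th percentile, 51.7% of the calls were higher, against 46.5%. Signals at the floor carry no order, and detection calls were not used.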

Other observations

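In 3 of the 48 list genes above the floor on all arrays, as in CLCA1 and MUC4, the array without a culture note exceeded the mean of the other 2 by more than 0.5 in both cell lines. The same held for 112 of all 4330 genes above the floor on all arrays (2.59%), and the list count was not tested. The list genes were KLF4 (1.17 in IPEC-J2 and 0.51 in IPEC-1), the fucosyltransferase FUT8 (0.80 in IPEC-J2 and 1.04 in IPEC-1) and CD164 (0.91 in IPEC-J2 and 1.54 in IPEC-1). A probe set of CD164 was at the floor on the other IPEC-1 arrays and on IPEC-J2 replicate 1. These genes were picked with their values in view.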
